A study of Mus musculus with 10 samples.

Results

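Immediate-early transcription factors are a group of 10 genes here (Egr1, Egr2, Egr3, Fos, Fosb, Jun, Junb, Atf3, Ier2 and Nr4a1), chosen by name from the 21959 genes that were measured in 10 4T1 tumors. One of them, Egr2, was selected on its small p between the groups of these same tumors, so the difference between the groups is given for the members as a description and supports nothing. The tumors grew after subcutaneous injection of 4T1 cells, a model of triple-negative breast cancer from a mouse mammary carcinoma, at the abdomen of female BALB/c mice. In the exercise group (E), 5 mice had access to a running wheel of their own will for 21 days, and in the non-exercise group (NE), 5 mice lived under normal husbandry for the same time. Each tumor gave 1 RNA library, and each library is a mixture of carcinoma and host cells from a single implanted line, so that fewer cells of a type and less RNA per cell cannot be told apart.

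Immediate-early genes are switched on within minutes by growth factors, stress or stretch, without new protein synthesis, because the factors that read the signal (SRF with its ternary complex partners, and CREB) already sit on their promoters. Their proteins, in turn, bind and drive a second set of genes. The EGR proteins are zinc finger factors, FOS, FOSB, JUN, JUNB and ATF3 are bZIP proteins that form AP-1 and related dimers, IER2 is a small nuclear regulator, and NR4A1 is an orphan nuclear receptor. Their messages are short-lived. In tumors, they are transcribed by carcinoma cells as well as by macrophages, fibroblasts and endothelial cells, and handling of tissue can also induce them.

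The members are compact genes. In the mouse reference annotation (GRCm38), matched by Ensembl identifier, Egr2 lies at chr10:67535475-67542188 (plus strand, 2 exons), Egr1 at chr18:34859823-34864984 (plus, 2 exons) and Egr3 at chr14:70077203-70082614 (plus, 2 exons). Of the AP-1 genes, Fos lies at chr12:85473890-85477273 (plus, 4 exons), Fosb at chr7:19302696-19310051 (minus, 4 exons), Jun at chr4:95049034-95052222 (minus, 1 exon), Junb at chr8:84974484-84978718 (minus, 1 exon) and Atf3 at chr1:191170296-191218039 (minus, 4 exons). Ier2 is at chr8:84661331-84662852 (minus, 1 exon) and Nr4a1 at chr15:101254269-101274795 (plus, 8 exons). The median span of the members was 5287 bp and the median number of exons was 2, compared with 24588 bp and 9 exons for the 13448 protein-coding genes that were expressed highly enough to be tested. A span under 10 kb was found in 8 of the 10 members and in 23.3% of these genes. Atf3, with 47744 bp, and Nr4a1, with 20527 bp, were the 2 longer ones.

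The promoters of 5 members are shown because they carry motifs that SRF, CREB or EGR proteins are known to read. The RefSeq promoter table (GRCm38.p6, a window around each annotated start) held 7 of the 10 members, and Egr1, Egr3 and Ier2 were not in it. Searched on both strands were the CArG box (the site of SRF), TGACG (the core that CREB and ATF proteins read), TGACGTCA (the full site, which holds TGACG on each strand), TGANTCA (the AP-1 site), GCGNGGGCG (the site of EGR proteins) and TATAAA. The motifs are in capitals, and on the minus strand of a gene they read as their reverse complement.

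Egr2 promoter, chr10:67537719-67537868, plus strand: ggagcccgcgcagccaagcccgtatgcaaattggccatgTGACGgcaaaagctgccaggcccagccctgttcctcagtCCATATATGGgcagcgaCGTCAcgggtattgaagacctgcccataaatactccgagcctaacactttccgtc

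Fos promoter, chr12:85473740-85473889, plus strand: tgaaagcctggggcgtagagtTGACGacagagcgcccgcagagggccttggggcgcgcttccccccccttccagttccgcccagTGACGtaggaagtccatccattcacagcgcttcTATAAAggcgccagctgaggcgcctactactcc

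Fosb promoter, chr7:19310046-19310195, minus strand: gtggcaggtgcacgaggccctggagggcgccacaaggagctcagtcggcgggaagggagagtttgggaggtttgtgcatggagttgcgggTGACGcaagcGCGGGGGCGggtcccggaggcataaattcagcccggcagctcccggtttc

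Nr4a1 promoter, chr15:101266696-101266845, plus strand: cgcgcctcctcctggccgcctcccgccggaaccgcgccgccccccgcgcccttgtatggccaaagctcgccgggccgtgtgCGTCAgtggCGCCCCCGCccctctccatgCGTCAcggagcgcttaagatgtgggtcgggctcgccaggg

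Junb promoter, chr8:84978749-84978898, minus strand: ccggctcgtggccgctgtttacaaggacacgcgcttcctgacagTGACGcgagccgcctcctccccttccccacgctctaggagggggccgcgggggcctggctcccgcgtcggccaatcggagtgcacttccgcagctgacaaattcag

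Egr2 was the only one of the 7 members with a CArG box in the window, compared with 1.63% of the 32851 promoters of the table. The box printed stood 72, 73 or 133 bases before the start, depending on which of 3 neighboring starts of Egr2 was used, and TGACG was found on either side of it. The window of another annotated start of Egr2, which is not printed, held a different CArG box, without TGACG in the window. TGACG was present in 6 members (Egr2, Fos, Fosb, Junb, Atf3 and Nr4a1) and in 20.8% of all promoters. The EGR site was present in Fosb and Nr4a1 (5.55% of all promoters), TATAAA in Fos and, just at the start and outside the stretch printed, in Junb (13.6%), and neither TGANTCA (7.81%) nor TGACGTCA (1.79%) was found in a member. A member was counted when the window of any of its annotated starts held the motif, and Egr2 had 5 such starts. The percentages count single windows, so that the 2 shares are not of the same unit. These matches are a description of the letters in these windows, and an absent motif says nothing about the factor.

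The other sequence searched was the 3′ untranslated region (UTR), where AU-rich stretches mark short-lived messages. The letters TATTTAT, in capitals below, occurred in the 3′ UTR of 4 of the 10 members (40.0%) and in 27.4% of the protein-coding genes tested. Most members did not hold them, and nothing is read from this share. Positions count from 1 at the first base of the 3′ UTR, in transcript direction. Each position is that of the first base of the stretch printed, and the capitals start further on.

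Fos 3′ UTR site at position 645: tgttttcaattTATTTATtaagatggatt

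Fosb 3′ UTR site at position 1488: cacccccagcTATTTATccctttcctggt

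Jun 3′ UTR site at position 1161: tgcttgtgcaTATTTATaatagcgttcgt

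Atf3 3′ UTR site at position 1117: aaatattactTATTTATcccagtattcct

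The longer form, TTATTTATT, was found in Fos only among the members, compared with 7.15% of the genes tested.

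All 10 members were detected in every tumor, with 91 reads (Fosb) to 3791 reads (Jun), and all passed the filter on low counts. On the FPKM scale, a read density per exon length and library size, the mean levels over the 10 tumors followed the order Junb (50.1), Jun (46.4), Ier2 (25.1), Fos (17.8), Atf3 (13.2), Egr2 (5.39), Egr3 (5.17), Nr4a1 (4.77), Egr1 (3.26) and Fosb (1.79). The order depends on the deposited gene lengths. These were 6243 nt for Fosb and 3509 nt for Nr4a1, where a coding transcript of the annotation had 3782 and 2553 nt. For Egr1, both were 4484 nt. Neighbors in this order were compared within tumors by an exact two-sided sign-flip permutation test with Benjamini-Hochberg (BH) adjustment over the 9 pairs. Egr2 and Egr3 (adjusted p = 0.508, Egr2 higher in 7 of 10 tumors) and Egr3 and Nr4a1 (adjusted p = 0.631, Egr3 higher in 7 of 10 tumors) did not differ beyond their spread. The other 7 steps passed, with adjusted p between 0.00879 and 0.0427, of which the step from Junb to Jun was the narrowest (median ratio 1.05, Junb higher in 7 of 10 tumors). The levels of Jun and Junb thus stood above those of both FOS genes.

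The comparison of E with NE asks how the tumors of running mice differ in gene expression. edgeR's quasi-likelihood test called 0 of 13517 genes (0.0%), with thresholds of 2 for the fold change and 0.05 for the false discovery rate (FDR), and 657 genes had an unadjusted p of at most 0.05. No member was called. The FDR was 0.897 for 9 members and 0.987 for Nr4a1, so that none of the differences below passed the test. The log2 fold change was above 0, that is, higher in E, in 8 of the 10 members and in 46.0% of all genes tested. An unadjusted p of at most 0.05 with the higher level in E was found for 7 members (2.57% of all genes) and with the lower level for 0 members (2.29%). The median log2 fold change was 0.37 over the members and -0.01 over all genes tested. As these genes were listed with the result for Egr2 in view, nothing is read from these shares.

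Among the zinc finger factors, Egr2, a regulator of myelination that is also induced in stimulated lymphocytes and macrophages, had FPKM of 7.01, 5.56, 5.73, 6.68 and 6.28 in E1 to E5 and of 4.80, 4.77, 4.52, 3.58 and 4.97 in NE1 to NE5. Every E tumor was above every NE tumor, as in 0.444% of all genes tested, while 0.281% had every E tumor below. The means were 6.25 ± 0.617 and 4.53 ± 0.554 (SD, n = 5), and its log2 fold change of 0.44 (SE 0.10) ranked 5th of 13517 genes by p. This is the value it was chosen for. Egr2 was also among the steadier members: its SD within the groups, on the log2 scale, was larger than that of 36.9% of all genes.

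Egr1, the prototype of the family and a target of SRF, had FPKM of 4.82, 3.21, 2.27, 3.47 and 6.15 in E and of 1.55, 2.42, 2.92, 3.03 and 2.75 in NE. The groups overlapped, with E5 and E1 high and NE1 low, and E was higher in FPKM in 21 of the 25 pairs of an E and an NE tumor. The means were 3.98 ± 1.52 and 2.54 ± 0.600 (SD, n = 5). By edgeR, the log2 fold change of Egr1 was 0.61 (SE 0.27), 0.41 without E5 and 0.30 with depth (log2 total count) as a covariate. Its SD within the groups exceeded that of 88.0% of all genes, the highest place of any member. Egr3, a relative that is induced downstream of calcium and NFAT signals, had 6.84, 6.84, 5.52, 6.06 and 3.73 FPKM in E and 6.48, 5.27, 3.46, 3.02 and 4.52 FPKM in NE. E5 and NE1 stood against the order of their groups, and these were the tumors in which Egr1 was highest and lowest. For Egr3, the log2 fold change was 0.33 (SE 0.22).

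Of the FOS genes, Fos had FPKM of 26.5, 15.2, 20.9, 17.6 and 26.5 in E and of 12.8, 14.9, 16.3, 13.2 and 14.4 in NE. The NE tumors lay close together, whereas E1 and E5 were well above the rest. The means were 21.3 ± 5.12 and 14.3 ± 1.39 (SD, n = 5), and the log2 fold change was 0.55 (SE 0.16), with E higher in FPKM in 24 of 25 pairs. Fosb, whose protein replaces FOS in longer stimulation, had 2.87, 1.90, 2.54, 2.25 and 1.6 FPKM in E and 2.14, 1.19, 1.43, 0.635 and 1.39 FPKM in NE. NE4 was the lowest and NE1 reached into the range of E. Fosb had the largest log2 fold change of the members, 0.70, with a large SE of 0.27 and the fewest reads.

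The JUN genes were high and steady. Jun, the partner that can also pair with itself, had 57.6, 44.8, 53.0, 45.6 and 48.2 FPKM in E and 42.8, 43.2, 46.1, 39.0 and 43.7 FPKM in NE. The log2 fold change was 0.18 (SE 0.078), and E was higher in FPKM in 23 of 25 pairs. Junb, a JUN protein with weaker transactivation, had 56.8, 49.5, 54.3, 57.5 and 56.2 FPKM in E and 51.7, 42.1, 46.0, 39.7 and 46.7 FPKM in NE. E2 and NE1 were the only pair out of order, and the log2 fold change was 0.25 (SE 0.067). The SD of Jun within the groups was larger than that of 27.7% of all genes, and that of Junb than 17.4%.

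Atf3, a stress-induced bZIP protein that represses as a homodimer, was the AP-1 member without a higher mean in E. It had 15.8, 9.69, 11.3, 11.1 and 13.8 FPKM in E and 11.1, 10.6, 16.2, 13.4 and 18.8 FPKM in NE, with NE5 highest and E2 lowest. The groups overlapped widely, and the log2 fold change of Atf3 was -0.22 (SE 0.19), -0.088 without NE5 and -0.14 without E2.

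Ier2 had 36.4, 25.4, 26.7, 30.4 and 25.7 FPKM in E and 27.1, 21.0, 21.6, 16.3 and 20.5 FPKM in NE. Apart from NE1, every NE tumor was below every E tumor. The log2 fold change was 0.41 (SE 0.13). Nr4a1, which is induced by calcium and cAMP signals, had 5.36, 5.50, 3.15, 4.30 and 5.57 FPKM in E and 4.87, 3.64, 4.36, 7.44 and 3.53 FPKM in NE. NE4 was the highest tumor and E3 the lowest. The means were 4.78 ± 1.04 and 4.77 ± 1.59 (SD, n = 5), and the log2 fold change of Nr4a1, -0.04 (SE 0.23), turned to 0.00018 without TMM scaling and to 0.20 without NE4, so that no direction can be given.

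**Figure D1:**
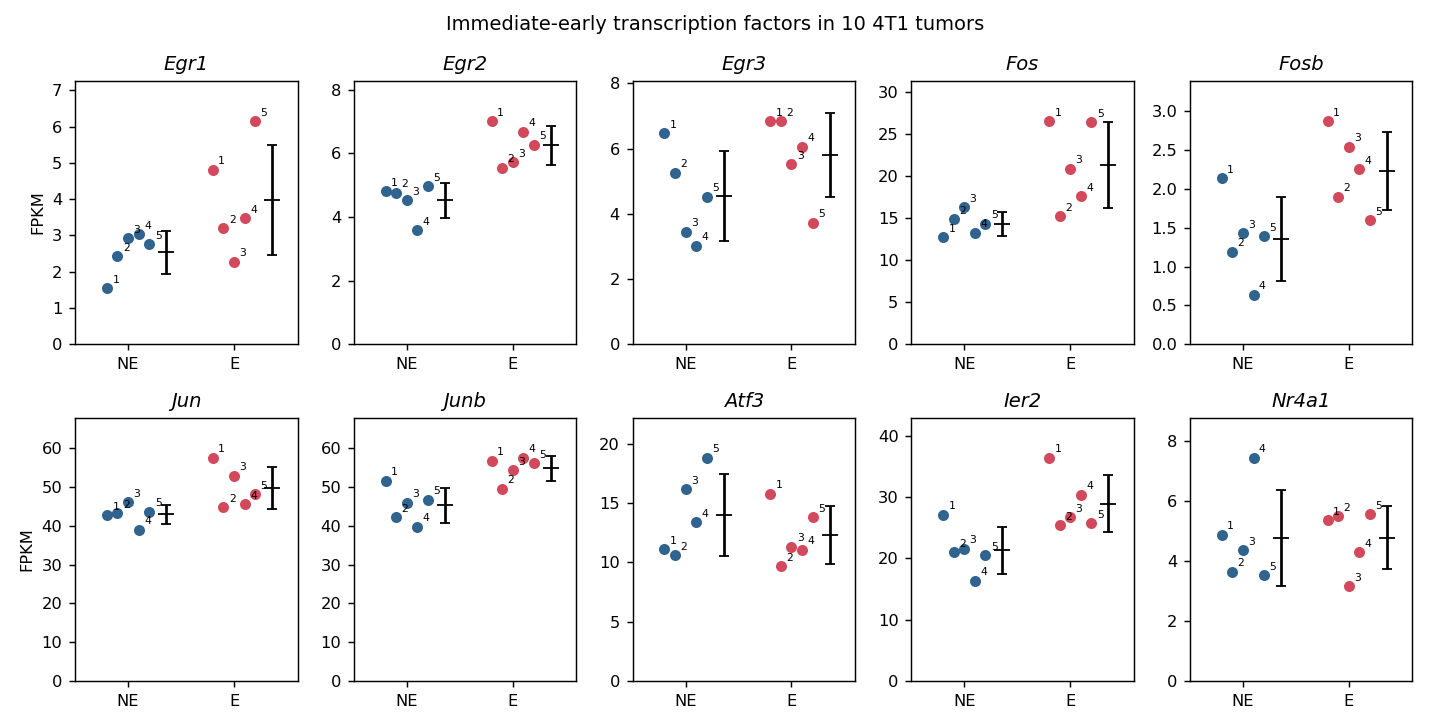
FPKM of the 10 members in each tumor of the non-exercise (NE, blue) and exercise (E, red) groups, numbered by replicate, with a panel and a linear axis from 0 for each gene; black bars show the mean and SD of 5 tumors. The groups are apart only for Egr2, where E lies between 5.56 and 7.01 and NE between 3.58 and 4.97.

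The depth was 15045613 to 20646763 reads in E and 18706032 to 23092251 in NE (log2 of the total, exact two-sided permutation test, p = 0.0397, BH-adjusted p = 0.278 over 14 library measures). With the log2 total as a covariate, the median log2 fold change of the members was 0.36 (0.37 without it), while the log2 fold change of Egr1 went from 0.61 to 0.30 and the log2 fold change of Fosb from 0.70 to 0.995. Host tissue markers varied between the tumors. The summed FPKM of 12 skeletal muscle markers ran from 148 to 2023 in E and from 4.85 to 13477 in NE, with NE4 highest. The 11 macrophage or monocyte markers summed to 1751 to 3056 FPKM in E and 899 to 2863 in NE, with none at 0. The 10 neutrophil markers reached 342 FPKM in E5. Of the 7 carcinoma epithelium markers, Krt8 (0 to 0.618 FPKM), Krt18 (0.0603 to 1.46) and Epcam (0.244 to 1.41) were at or near 0 in these tumors labelled as mammary cancer, as was Krt7 (0.00761 to 0.131). Cdh1 had 1.42 to 4.44 FPKM and Krt19 4.59 to 12.6. Krt14 ran from 0 to 30.3 FPKM, with 0 in 4 tumors and a median of 0.145. The 7 markers summed to 48.9 FPKM in NE5, the highest of the tumors. With the skeletal muscle score as a covariate, the log2 fold change of Fosb was 0.82. With the neutrophil score as a covariate, the log2 fold change of Egr1 was 0.46 and the log2 fold change of Egr3 was 0.44, compared with 0.33 without it.

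The other genes of the immediate-early response were described from lists of known genes. Of 16 further immediate-early transcription factors, 15 were tested (Egr4 had 0 reads in all tumors), and 11 had a log2 fold change above 0 and 4 below (median 0.13). None was called, 2 had an unadjusted p of at most 0.05 with the higher level in E (2.57% of all genes) and 1 with the lower level (2.29%). Csrnp1, a nuclear protein induced by AXIN1, was the single gene of this list without overlap of the groups (0.444% of all genes), with 9.45 ± 1.57 FPKM in E and 6.37 ± 1.07 in NE and a log2 fold change of 0.54 (SE 0.14). Fosl2, another FOS partner of AP-1, had a log2 fold change of 0.24 (SE 0.087) and Klf10, a TGF-β-induced repressor, of -0.21 (SE 0.069). The abundant Klf6 (77.6 ± 7.72 FPKM in E, 71.5 ± 11.8 in NE) and Myc (44.6 ± 5.43 and 46.4 ± 7.09), the growth regulator, had log2 fold changes of 0.09 and -0.08, the first of which was -0.065 by limma-voom with sample weights.

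The bZIP proteins that pair with the members had log2 fold changes of either sign. Of 10 AP-1 dimerization partners, 4 had a log2 fold change above 0 and 6 below, near the 46.0% above 0 of all genes tested. The median was -0.06, and none had an unadjusted p of at most 0.05. The most abundant were Atf4, the factor of the integrated stress response, with 131 ± 21.8 FPKM in E and 146 ± 12.9 in NE (log2 fold change -0.19, SE 0.11), and Jdp2, a repressor of AP-1, with 18.7 ± 2.28 and 16.3 ± 0.851 (0.17, SE 0.086).

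The upstream regulators, that is SRF and its cofactors, CREB factors and the MAP kinase cascade, were the flattest list. Of 23 genes, 11 were above 0 and 12 below, with a median log2 fold change of -0.02, and their summed level was 422 to 437 FPKM in E and 394 to 430 in NE. Elk1, a ternary complex factor that joins SRF at the CArG box, had a log2 fold change of 0.19 (SE 0.079), and Mrtfa, the actin-regulated SRF cofactor, of 0.14 (SE 0.057), and both had an unadjusted p of at most 0.05 (2 of 23 genes, and 2.57% of all genes). The abundant Elk3, a related factor, had a log2 fold change of 0.15 (SE 0.069) and Map2k1, the kinase MEK1, of -0.02 (SE 0.060). The direction of Map2k1 turned in 8 of 23 alternatives. Activity of these proteins is set by phosphorylation and is not measured here.

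The feedback regulators are known to end the response. Of 19 genes, 16 had a log2 fold change above 0 and 3 below, the median was 0.24, and 1 had an unadjusted p of at most 0.05 with the higher level in E (46.0% and 2.57% of all genes). This was Spry4, an inhibitor of receptor tyrosine kinase signals, with 8.65 ± 1.10 FPKM in E and 6.96 ± 0.950 in NE (log2 fold change 0.29, SE 0.11). The abundant genes were Dusp6, a phosphatase of ERK, with 120 to 152 FPKM in E and 76.9 to 131 in NE (0.24, SE 0.12), and Zfp36l1, a protein that binds AU-rich elements, with 67.6 ± 6.37 and 60.8 ± 1.36 FPKM (0.12, SE 0.065). None of the 3 passed the test.

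Immediate-early genes that code for secreted or cytoplasmic proteins also had mostly higher means in E. Of 19 genes, 17 were above 0 and 2 below, the median log2 fold change was 0.23, and 4 had an unadjusted p of at most 0.05 with the higher level in E, none of them called. All genes tested had 46.0% above 0 and 2.57% at that p. Ccn1, a matricellular protein and target of SRF and YAP, had 70.3 ± 11.8 FPKM in E (59.6 to 88.4) and 41.3 ± 11.2 in NE (23.5 to 53.6), with no overlap (0.444% of all genes had every E tumor above) and a log2 fold change of 0.74 (SE 0.19). Its relative Ccn2 (14.6 ± 2.80 and 10.7 ± 2.53 FPKM) and Thbs1 (108 ± 27.4 and 74.2 ± 24.3 FPKM), an inhibitor of angiogenesis, had log2 fold changes of 0.43 (SE 0.18) and 0.52 (SE 0.22). Ccl2, a monocyte attractant, had 144 ± 22.1 and 119 ± 17.1 FPKM (0.24, SE 0.12). Cxcl2, a neutrophil attractant, had the largest log2 fold change, 3.21 (SE 1.08), on a range of 1.95 to 69.6 FPKM in E and 0.674 to 2.22 in NE. It rests on E5, the tumor with the highest neutrophil score, and was 0.71 without that tumor and -0.23 with the log2 total as a covariate.

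All 8 AP-1 target genes had a log2 fold change above 0, with a median of 0.14 and 2 at an unadjusted p of at most 0.05, none of them called (46.0% and 2.57% of all genes). These 2 were Mmp9, a gelatinase, with 53.3 ± 34.2 FPKM in E and 22.1 ± 9.14 in NE (1.25, SE 0.50), and Plau, urokinase, with 104 ± 15.1 and 81.5 ± 11.9 (0.32, SE 0.12). Spp1, osteopontin, and Timp1, an inhibitor of metalloproteinases, were abundant and had log2 fold changes of 0.11 (SE 0.23) and 0.04 (SE 0.10), whose direction turned in 2 and 4 of 23 alternatives.

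The heat shock genes, chaperones that are driven by HSF1 and, like the members, respond to stress and tissue handling, stood on the other side. All 10 had a log2 fold change below 0, with a median of -0.38, and 7 had an unadjusted p of at most 0.05 (2.29% of all genes), none of them called. Hspa1b, an inducible HSP70, had 4.11 ± 0.455 FPKM in E and 6.86 ± 1.94 in NE (-0.77, SE 0.20). Hspd1, the mitochondrial HSP60, had 189 ± 17.2 and 225 ± 13.1 FPKM (-0.28, SE 0.075). The log2 fold change of Hspb1 was -0.64 (SE 0.26), -0.40 without NE1 and -0.28 by limma-voom with sample weights. The other 4 were Hsp90aa1 (-0.45, SE 0.19), Dnaja1 (-0.31, SE 0.099), Dnajb1 (-0.31, SE 0.11) and Hspe1 (-0.21, SE 0.078). No single gene was free of overlap, but the summed FPKM of the list lay between 503 and 600 in E and between 638 and 760 in NE. For the mean log2(CPM + 1) of the list, the exact two-sided permutation test gave p = 0.00794, the smallest possible. The BH-adjusted p over 14 library measures was 0.111, which did not pass. The summed FPKM of the members (168 to 220 in E, 139 to 165 in NE) also did not overlap. As Egr2 was chosen on its difference, nothing is read from this. For the non-nuclear immediate-early genes, the summed FPKM did not overlap (583 to 703 in E, 354 to 548 in NE). Their mean log2(CPM + 1) did overlap (4.71 to 5.23 in E, 4.42 to 4.78 in NE). Of the 10 hypoxia genes, 8 were below 0 (median -0.16) and none had an unadjusted p of at most 0.05. The abundant Pgk1, a glycolytic enzyme, had -0.29 (SE 0.14) and Egln3, a HIF prolyl hydroxylase, 0.03 (SE 0.24), turning its direction in 5 of 23 alternatives.

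**Figure D2:**
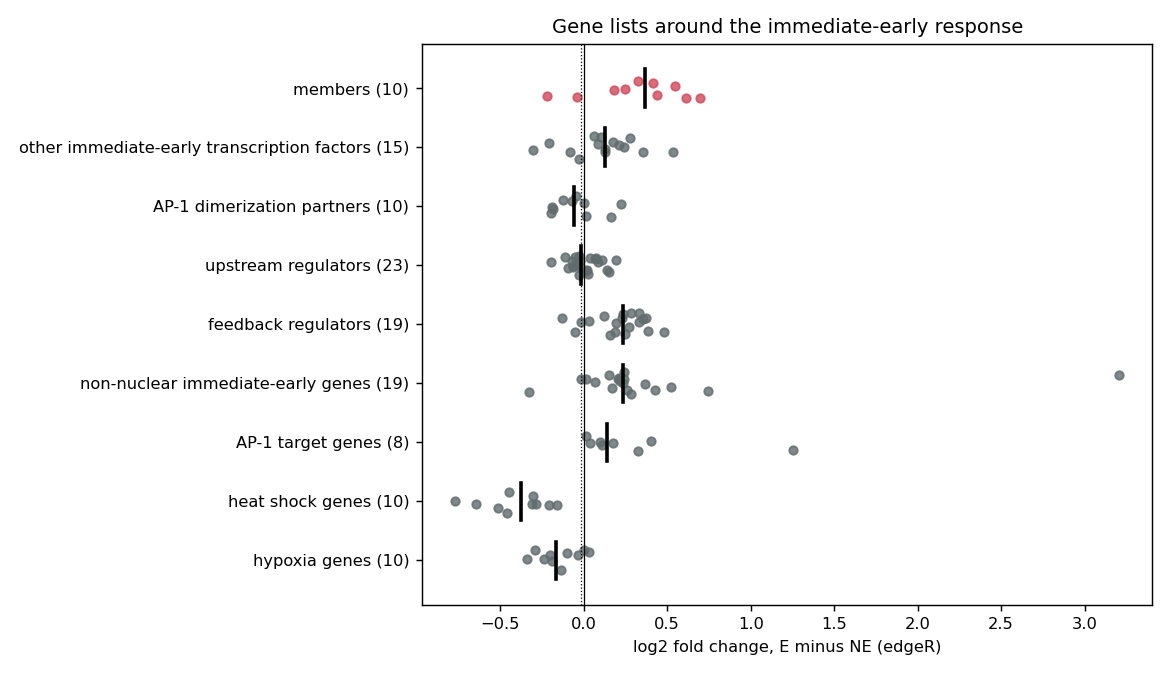
Log2 fold changes of E against NE by edgeR, for the 10 members (red) and 8 lists of related genes (gray), with the number tested in parentheses; each point is a gene, the thick bar is the median of the list, and the dotted line is the median of all genes tested (-0.01). Members, feedback regulators and non-nuclear immediate-early genes have medians of 0.37, 0.24 and 0.23, upstream regulators lie around 0 and all 10 heat shock genes lie below it.

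Whether the members move together from tumor to tumor does not use the difference between the groups. Pearson's r of log2(CPM + 1), with the CPM scaled by TMM, was computed for the 45 pairs after the group means had been removed, with 100000 permutations within groups. The median r was 0.25, compared with -0.001 over all pairs of genes tested, and 31 of the 45 pairs were above 0. It was 0.13 without E2 and 0.43 without NE1. No pair passed the adjustment over 45 pairs (8 with a permutation p of at most 0.05, smallest adjusted p = 0.243), so the pairs are given as values.

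The members did not form a single block. Fosb and Ier2 were the closest pair (r = 0.88, Spearman's rho = 0.79, permutation p = 0.00551, adjusted p = 0.243), with r = 0.76 without NE1 and NE4. Around them stood Egr2 (r = 0.75 with Ier2 and 0.65 with Fosb), Junb (0.73 with each) and Egr3 (0.66 and 0.71). Egr3 had a lower r with Egr2 (0.41) and Junb (0.23). Without E5 and NE4, the r of Egr3 and Fosb was 0.30. Without E2 and NE4, the r of Egr2 was 0.51 with Ier2, 0.16 with Fosb and 0.13 with Junb, so that these relations rest on few tumors. Fos had its highest r with Jun (0.73, and 0.41 without E1 and E2), Atf3 (0.67) and Egr1 (0.61), while Egr1 and Jun had r = 0.07. Jun also had r = 0.49 with Fosb and 0.56 with Atf3.

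Egr1 and Nr4a1 went against some of the other members, although the median r of Egr1 with the other 9 was 0.07. Egr1 and Egr3, which share their DNA-binding domain type and recognition site, had r = -0.68 (permutation p = 0.0418, adjusted p = 0.256), and -0.73 without E3 and NE1. Spearman's rho of this pair was -0.50 (permutation p = 0.17, adjusted p = 0.481). Nr4a1 had negative r with 7 of the other 9 members, with -0.59 to Fosb and -0.53 to Egr2, and a median of -0.36. The r was also computed without the 2 tumors that were outermost for the other gene of the pair, not for Nr4a1. Then 4 of these 7 were above 0, with 0.25 for Egr2 without E2 and NE4, so that their sign rests on few tumors. Those with Ier2 (-0.79), Jun (-0.50) and Fosb (-0.41) stayed below 0. The median r of Fosb and Ier2 with the others was 0.49 and 0.48.

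**Figure D3:**
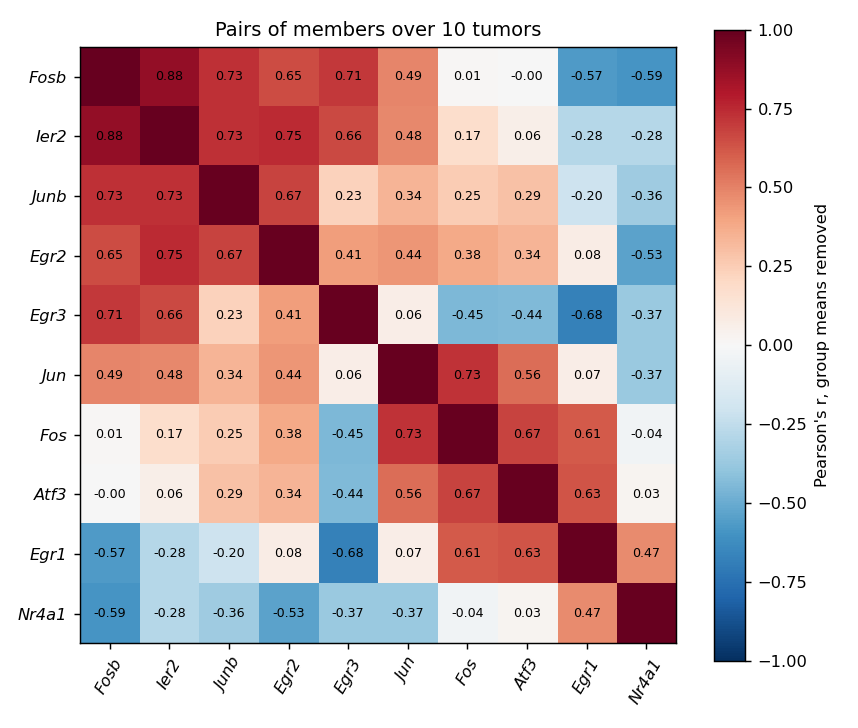
Pearson's r over 10 tumors for each pair of members, from log2(CPM + 1) with the group means removed, on a color scale from -1 (blue) to 1 (red). Fosb, Ier2, Junb, Egr2 and Egr3 stand in the upper left, with r from 0.23 to 0.88. Among Jun, Fos, Atf3 and Egr1, r lies between 0.07 and 0.73, and Nr4a1 is mostly negative. No pair passed the adjustment.

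Each member was also set against 14 measures of the libraries (depth, mitochondrial share, 10 cell type scores, heat shock and hypoxia scores), in 140 relations with the group means removed. A score is the mean log2(CPM + 1) of the markers. Of these, 22 had a permutation p of at most 0.05, and 1 passed the BH adjustment. This was Egr1 with the macrophage or monocyte score (r = 0.84, permutation p = 0.00014, adjusted p = 0.0196, and Spearman's rho = 0.85, permutation p = 0.00025, adjusted p = 0.035). Without E3 and NE1, r was 0.70, and leaving out each tumor in turn gave 0.82 to 0.91. The exact permutation p of these was between 0.000347, the smallest possible with 2880 permutations, and 0.00139. These p-values are not adjusted over the 140 relations. On log2(FPKM + 1), r was 0.78. The macrophage score itself did not separate the groups (7.05 to 7.85 in E, 6.0 to 7.87 in NE, exact permutation test, p = 0.714). Both measures come from the same libraries, and the cell that carries the Egr1 message is not known from bulk RNA.

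Egr3 had the opposite sign with this score, r = -0.69 (permutation p = 0.0223, adjusted p = 0.228), which did not pass. Egr1 also had r = 0.75 with the T cell score (permutation p = 0.00288, adjusted p = 0.134) and 0.78 with the neutrophil score (permutation p = 0.0124, adjusted p = 0.174). With the fibroblast score, its r was 0.80 (permutation p = 0.0102, adjusted p = 0.161), and 0.54 without E5 and NE1. With the B cell score, its r was 0.69 (permutation p = 0.0166, adjusted p = 0.201). Atf3 went with the carcinoma epithelium score (r = 0.86, permutation p = 0.00225, adjusted p = 0.134), of which only 3 of 7 markers passed the filter. Junb had r = -0.81 with the skeletal muscle score (permutation p = 0.00945, adjusted p = 0.161) and Fosb and Egr3 had r = -0.82 and -0.81 with the fibroblast score (adjusted p = 0.161 for each, by permutation). The r of Egr3 with the neutrophil score, -0.81, was -0.40 without E5 and NE4 and rests on them. Nr4a1 went with the heat shock score (r = 0.77, permutation p = 0.0172, adjusted p = 0.201), and r was 0.44 without E1 and NE4. None of these passed the adjustment.

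**Figure D4:**
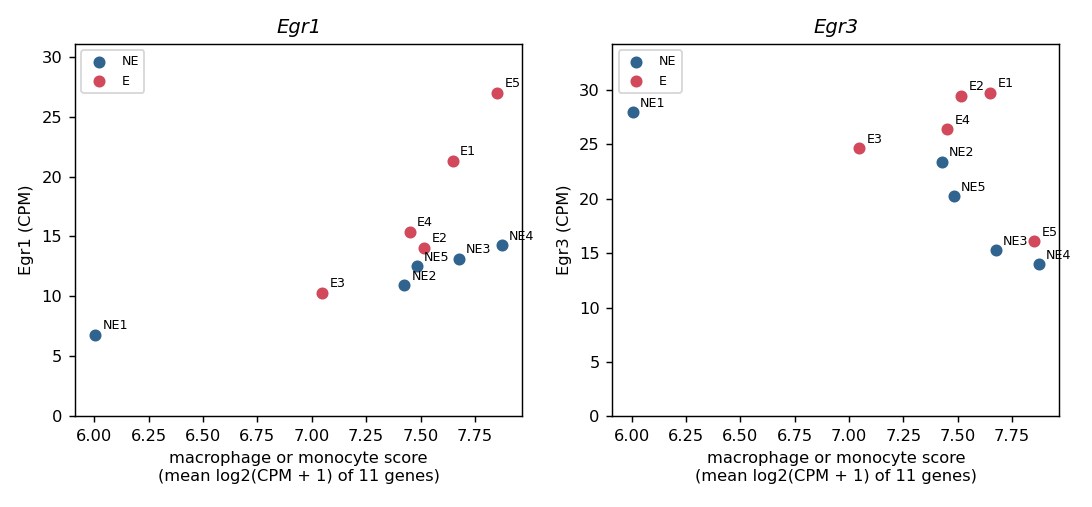
CPM of Egr1 (left) and Egr3 (right) against the macrophage or monocyte score, the mean log2(CPM + 1) of 11 markers, in each E (red) and NE (blue) tumor. Egr1 is lowest in NE1, which has the lowest score (6.0), and highest in E5 (score 7.85), and Egr3 is lowest in NE4, which has the highest score (7.87).

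The genes whose pattern was most like the mean of the standardized members were sought among 13507 other genes, by Pearson's r over the 10 tumors with the group means removed. The closest were Haspin, a histone H3 kinase of mitosis (r = 0.92), Rrp8, which acts on ribosomal RNA genes (0.91), S100a10, the partner of annexin A2 (0.90), Enc1, an actin-binding protein (0.89), and Peds1, the plasmalogen desaturase (0.89). The next were Clic1, a chloride channel protein (0.89), Apobr, a lipoprotein receptor of macrophages (0.88), Ppm1g, a protein phosphatase (0.88), Hsf2bp, a factor of meiotic recombination (0.87), and Eaf1, a partner of the elongation factor ELL (0.87). The median r of all genes was -0.01. These are the highest of many values over few tumors and carry no test. Of the list genes, Plaur, the urokinase receptor, was at rank 40 (r = 0.82), Dusp5 at 43 and Ereg at 48.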

How the data were processed

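Messenger RNA of 10 tumors (5 E, 5 NE; groups and replicate numbers from the labels) was sequenced as 1 paired-end library per mouse. The authors used Hisat2 for alignment and Stringtie for expression. Their table gives counts and FPKM per gene and tumor. The deposited counts are whole numbers and not normalized. The deposited FPKM are the count divided by gene length and total count, without a TMM factor. The genome build of the table is not named, and the methods give a rat assembly although the identifiers are those of mouse, so gene positions were taken from GRCm38 by identifier.

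From the counts, the whole table was fitted with edgeR 4.0.16 in R 4.3.3 (TMM, filterByExpr, glmQLFit and glmQLFTest, BH adjustment over 13517 genes), with thresholds of 2 (fold change) and 0.05 (FDR). Log2 fold changes are E minus NE. The members and the lists were chosen with earlier results of these data known, and the lists serve as descriptions. The text names the 10 members, genes of the lists with an unadjusted p of at most 0.05, the 2 most abundant of each list, and the 10 genes closest to the mean pattern of the members. Csrnp1 and Ccn1 are within this rule, while Egr4, Plaur, Dusp5, Ereg and the marker genes were named after their values were seen. Ddit3 stands on more than 1 row of the table, of which the one with most reads was used. Permutation tests used scipy 1.17.1 in Python 3.11.15. The fit was tested on simulated data. Alternatives were DESeq2 1.42.0, limma 3.58.1 (voom and trend), edgeR's exact test, other filters and scaling, covariates, the replicate number as a block and leaving out each tumor. The r of Egr1 with the macrophage score without each tumor and on log2(FPKM + 1) was added after seeing the data. Depth was 15045613 to 23092251 reads per tumor. Reads carry no molecular identifiers, so that PCR duplicates are part of the counts.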

Additional observations from a re-analysis of the deposited data

Results flagged for a closer look

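In FPKM, no value of the 10 members was past Dixon's limit for 5 samples (0.71). On log2(CPM + 1), 1 of 20 groups of member values was, Junb in E2 with 6.81 (7.0 to 7.04 in the other E tumors). Over 48 groups of values, the members in FPKM and the scores, 6 were past it, where chance gives 2.4, and all 6 were scores of other lists (mean log2(CPM + 1)). The neutrophil score of E5 was 3.2 (0.886 to 1.48 in the other E tumors), and E5 had the highest Egr1 and the lowest Egr3 and Fosb of its group. The macrophage or monocyte score of NE1 was 6.0 (7.43 to 7.87 in the other NE tumors), and NE1 had the lowest Egr1 and Fos and the highest Egr3, Fosb, Junb and Ier2 of its group. The heat shock score of E1 was 6.46 (6.22 to 6.26 in the other E tumors), and E1 had the highest Egr2, Fos, Fosb, Jun, Atf3 and Ier2 of all E tumors. Over the 10 tumors, with the group means removed, the r of these members with the heat shock score was only -0.39 (Egr2) to 0.16 (Atf3). The hypoxia score of NE5 was 6.32 (5.5 to 5.68), its differentiated keratinocyte score was 3.61 (0.551 to 0.739), and NE5 had the highest Atf3 of all tumors. The keratinocyte score of E3 was 0.877 (0.628 to 0.7).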

How the results depend on the processing

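Over 23 alternatives, the median log2 fold change of the members stayed between 0.28 and 0.47 (also the range when each tumor was left out), and 8 or 9 members were higher in E. No alternative gave a member an FDR under 0.133 (Egr2, DESeq2). The number of genes called was 0 under every fit, and 56 when the same fold minimum of 2 went with an unadjusted p of 0.05. Without a fold minimum, DESeq2 gave 3 genes at an FDR of at most 0.05. The 657 genes at an unadjusted p of at most 0.05 became 1800 with limma-voom and sample weights (used in every limma-voom fit here), 349 with edgeR's exact test and 122 with the log2 total as a covariate. The 7 members at that p became 4 without E1 or without NE2 and 8 with the neutrophil score as a covariate. Leaving out each tumor gave a median r of member pairs between 0.13 and 0.43, and the other settings 0.25 to 0.39. With a replicate block, 0 genes were called, the median log2 fold change of the members was 0.38 and the smallest FDR was 0.871. The paper writes of matched pairs and does not say what was matched. Between same-numbered tumors, the deviations from the group means had r of 0.036, -0.16, -0.095, -0.32 and 0.32. For E5, this r was above its highest r with another NE tumor (0.11), and for the other E tumors it was below. Such values cannot decide whether the numbers stand for pairs.

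By limma-voom, the log2 fold change of Fos was 0.31 and the log2 fold change of Jun was 0.086. Log2 fold changes near 0 turned. The log2 fold change of Nr4a1 was 0.23 (limma-voom), 0.019 and 0.025 (limma-trend with 1 and 0.1 added), 0.00018 (no TMM), 0.0014 (log2 total), -0.13 to 0.20 when each tumor was left out, and 0.14 without NE4 and E5, and the log2 fold change of Map2k1 was 0.014 (limma-trend, both), 0.013 (no TMM), 0.061 (log2 total) and -0.049 to 0.012 with a tumor left out. For the HIF hydroxylase, the log2 fold change of Egln3 was -0.12 (limma-voom), -0.18 to 0.21 with a tumor left out and -0.065 without NE4 and E5. The log2 fold change of Klf6 was -0.065 (limma-voom), the log2 fold change of Timp1 was -0.0031 (neutrophil score), -0.030 (log2 total) and -0.0091 to 0.11 with a tumor left out, the log2 fold change of Spp1 was -0.037 to 0.22 with a tumor left out, and the log2 fold change of Cxcl2 was -0.23 (log2 total). The cause was not tested. Depth limits Fosb most among the members, with 91 to 370 reads a tumor.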
